A study of Mus musculus with 16 samples.

Results

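Interferon-stimulated genes were measured in brown adipose tissue (BAT) and gonadal white adipose tissue (gWAT) of mice that lack phosphoglycerate mutase 1 (Pgam1) in adipocytes. The group was given by name and held 9 genes, namely Stat2, Irf7, Irf1, Isg15, Ifit1, Ifit3, Rsad2, Oas2 and Mx1. A probe was matched to 8 of the 9, among 22911 gene symbols with a probe on the array, and the brightest probe stood for each gene. Mx1 was matched to no probe and has no value here. All 8 genes were well above background on all 16 arrays, so that none was lost to the filter on dim probes.

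Adipo-Pgam1 KO mice (Adipoq-Cre+: Pgam1 flox/flox) were compared with littermate wild-type (WT) controls, which carry the floxed Pgam1 alleles without Cre. The adiponectin promoter drives Cre in adipocytes, and cells of the tissue in which that promoter is not active keep Pgam1. All mice were male, of strain C57BL/6NCrSlc, and 4 arrays were made per tissue and genotype. Age was 16 weeks on 14 arrays and 14 weeks on the remaining 2, which were replicate 4 of the KO group in each tissue. Levels are given as log2 of a probe's signal over the 75th percentile of its array, so that 0 is a signal equal to that percentile, and a change is a difference of such levels. A change passed the test at an adjusted p below 0.05, from limma with Benjamini-Hochberg adjustment over all genes tested.

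Interferons are secreted proteins that warn cells of infection. Type I interferon binds the receptor subunits Ifnar1 and Ifnar2, whose Janus kinases phosphorylate Stat2. Stat2 works with Irf9 in a complex that binds the interferon-stimulated response element and switches on antiviral effectors, while interferon gamma acts mainly through the gamma-activated site. In adipose tissue both adipocytes and resident immune cells can respond.

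The promoters of the members are shown because the pathway's factors are known to bind such stretches. RefSeq promoter windows on build GRCm38.p6 were matched for 7 of the 9 members, and Oas2 and Mx1 were not matched. The windows were searched on both strands for GAAANNGAAA, the core of the response element, and for TTCNNNGAA, the core of the gamma-activated site, which reads alike on both strands. GAAANNGAAA was present for 5 of the 7 members and in 3.44% of the 32851 windows of all genes. TTCNNNGAA was present for 1 of the 7 and in 8.3% of all windows. Member counts are by gene and the shares are by window. The 7 members have 8 windows, since Irf1 has 2, and the second window of Irf1 held neither motif. The 250 bases before the start site are printed 5′ to 3′ on the gene's strand, with matches in capitals. They lie at chr4:156200819-156201068 on the minus strand, chr19:34640639-34640888 on the plus strand, chr12:26456453-26456702 on the minus strand, chr10:128270248-128270497 on the plus strand and chr11:53769764-53770013 on the plus strand.
Isg15: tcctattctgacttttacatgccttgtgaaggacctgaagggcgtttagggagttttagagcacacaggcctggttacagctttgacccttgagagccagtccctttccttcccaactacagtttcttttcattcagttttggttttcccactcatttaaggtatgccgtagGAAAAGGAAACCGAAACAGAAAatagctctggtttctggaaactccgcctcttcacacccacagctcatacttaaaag
Ifit1: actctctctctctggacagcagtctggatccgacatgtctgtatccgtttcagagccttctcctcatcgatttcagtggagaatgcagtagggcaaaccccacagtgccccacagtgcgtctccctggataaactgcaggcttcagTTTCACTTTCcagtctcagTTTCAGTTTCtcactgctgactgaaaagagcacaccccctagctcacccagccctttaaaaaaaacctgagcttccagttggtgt
Rsad2: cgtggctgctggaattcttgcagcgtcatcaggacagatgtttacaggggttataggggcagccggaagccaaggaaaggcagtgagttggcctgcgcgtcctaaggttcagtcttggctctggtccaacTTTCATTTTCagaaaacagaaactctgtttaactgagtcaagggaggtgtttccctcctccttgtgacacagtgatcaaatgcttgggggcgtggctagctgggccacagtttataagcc
Stat2: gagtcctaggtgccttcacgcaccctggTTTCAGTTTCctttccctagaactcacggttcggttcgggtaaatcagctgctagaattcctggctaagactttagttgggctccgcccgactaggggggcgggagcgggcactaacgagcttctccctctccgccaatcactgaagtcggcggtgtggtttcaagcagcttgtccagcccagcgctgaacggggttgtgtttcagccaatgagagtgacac
Irf1: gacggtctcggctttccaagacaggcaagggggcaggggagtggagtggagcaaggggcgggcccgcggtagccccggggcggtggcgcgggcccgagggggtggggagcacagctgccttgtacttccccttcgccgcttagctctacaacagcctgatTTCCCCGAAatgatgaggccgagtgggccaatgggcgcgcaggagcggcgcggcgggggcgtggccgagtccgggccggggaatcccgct

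Isg15 held 3 overlapping matches to GAAANNGAAA that began at -78, -72 and -66 from the start site. Ifit1 held 2, which began at -104 and -85, and Rsad2 held 1 at -120. The match in Stat2 lay farther out, at -222. Ifit3, whose window is not printed, held TTTCACTTTC and TTTCAGTTTC, the same letters as the 2 matches of Ifit1. Irf1 held TTCCCCGAA at -90 and no GAAANNGAAA, and the window of Irf7 held neither motif. A match is a description of the letters, and binding was not measured.

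The knockout label was checked on Pgam1 itself. In BAT the level of Pgam1 fell by 1.74 on the log2 scale in KO (SE 0.11, adjusted p = 1.11e-05). In gWAT it went the other way, from 5.07 to 5.67 in WT to 5.95 to 6.5 on the arrays labelled KO, a rise of 0.95 (SE 0.19, adjusted p = 0.0139). Every direction in gWAT below therefore rests on that label. Of 6 brown adipocyte markers tested in gWAT, 5 rose with the KO label. Tissue identity followed the labels: the summed level of 8 brown adipocyte markers ran from 3323 to 3555 in BAT WT and from 12.8 to 23.6 in gWAT WT, and Ucp1 was not above background on any gWAT WT array. The 75th percentile of signal was 401 to 451 on BAT WT arrays, 650 to 916 on BAT KO arrays, 570 to 855 on gWAT WT arrays and 657 to 831 on gWAT arrays labelled KO. Arrays of a group correlated at 0.971 to 0.994. The 16 arrays lay on 3 slides. In BAT, 3 WT arrays lay on slide 1 while the fourth shared slide 2 with all 4 KO arrays, and in gWAT 3 WT arrays lay on slide 2 while the fourth shared slide 3 with all 4 labelled KO. Skeletal muscle markers varied between BAT KO arrays, with a summed level of 1.71 to 122.9, against 0.647 to 1.42 in BAT WT.

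Interferon-stimulated genes were higher in BAT of Adipo-Pgam1 KO mice than in BAT of littermate controls. Of the 8 members measured, 7 rose past the test with the percentile scaling and none fell, while 27.5% of the 14280 genes tested in BAT were called higher and 34% lower. The rise ran from 1.57-fold for Rsad2 to 6.30-fold for Oas2. The median log2 change of the 8 members was 1.49, against -0.081 over all genes tested. Values of WT and KO arrays did not overlap for 6 of the 8 members, and 25.1% of all genes tested had KO arrays that lay wholly above WT arrays. Irf1 did not pass the test.

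**Figure D1:**
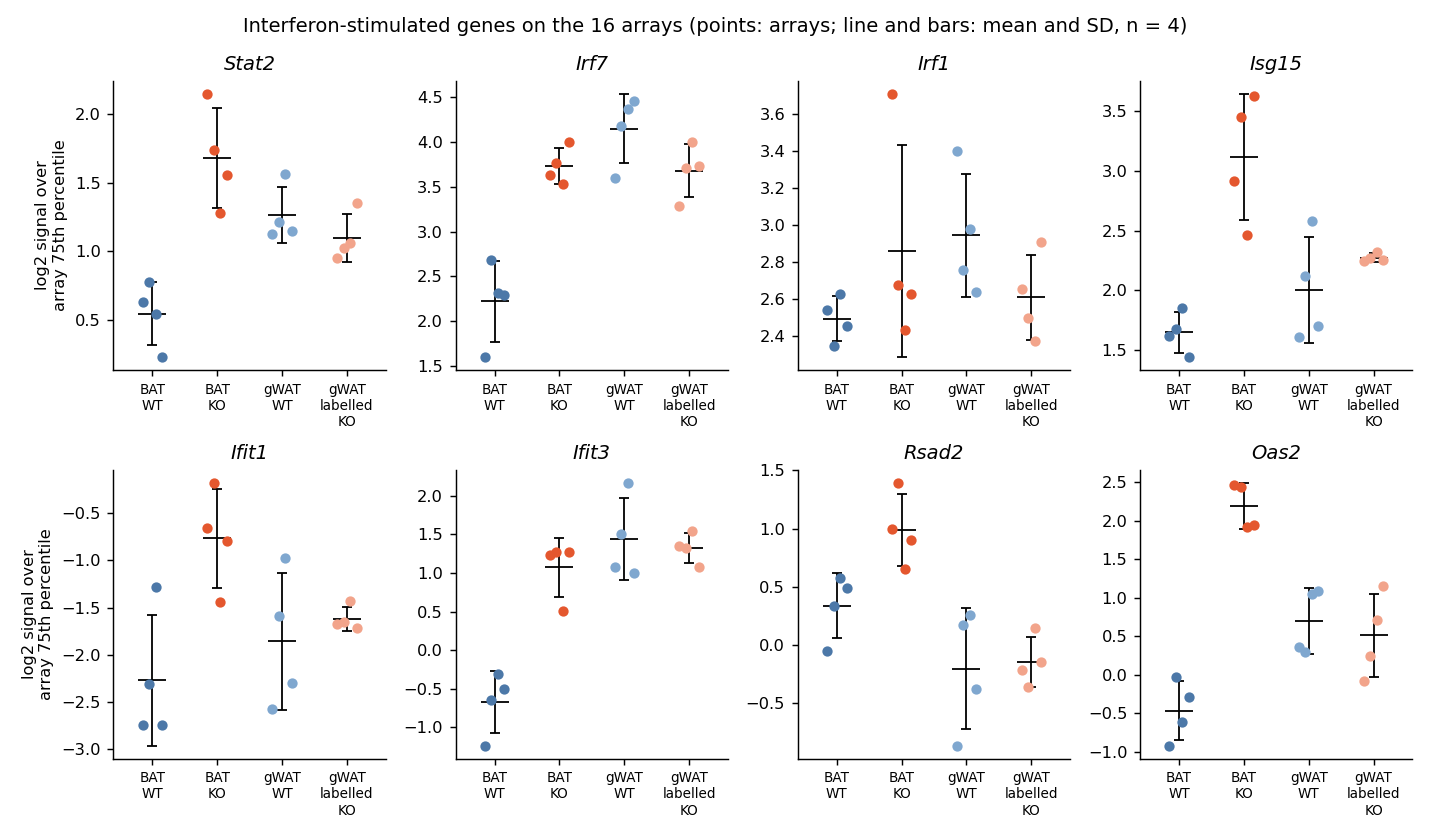
Each panel shows 1 gene, with its own vertical scale of log2 signal over the array's 75th percentile. Points are the 4 arrays of a group and the line and bars are the mean and SD. BAT KO arrays lie wholly above BAT WT arrays in 6 of 8 panels, the exceptions being Irf1 and Ifit1, and the gWAT groups overlap in all 8.

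Stat2 and Irf7 are the factors of the group that carry the type I signal. Stat2 is the subunit that the receptor kinases phosphorylate, and Irf7 is an interferon-induced factor that in turn drives interferon alpha genes. Stat2 levels were 0.63, 0.77, 0.54 and 0.23 in BAT WT and 2.15, 1.74, 1.28 and 1.56 in BAT KO. Every KO array lay above every WT array, a 2.20-fold difference (log2 change 1.14, SE 0.20, adjusted p = 0.00102). Irf7 levels were 1.60, 2.68, 2.31 and 2.30 in BAT WT and 3.63, 3.77, 3.53 and 4.0 in BAT KO. The lowest KO array again exceeded the highest WT array, a 2.85-fold difference (log2 change 1.51, SE 0.22, adjusted p = 0.000426). A dimmer probe of Irf7, also above background on all arrays, gave a log2 change of 1.48 in BAT.

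Irf1 encodes a factor that is best known as an early target of interferon gamma. Its BAT levels were 2.54, 2.34, 2.63 and 2.45 in WT and 3.71, 2.68, 2.43 and 2.63 in KO. KO replicate 1 lay well above all WT arrays and KO replicate 2 just above them, while KO replicates 3 and 4 fell within the WT range. The log2 change of 0.37 (SE 0.26) did not pass the test (adjusted p = 0.239), and a dimmer probe of Irf1 gave 0.017.

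Isg15 encodes a ubiquitin-like protein that is attached to other proteins after interferon. In BAT it stood at 1.62, 1.67, 1.86 and 1.44 in WT and at 2.91, 3.45, 2.47 and 3.63 in KO. The groups did not overlap, and the difference was 2.76-fold (log2 change 1.47, SE 0.24, adjusted p = 0.00087). The KO arrays spread more than the WT arrays, with an SD of 0.53 against 0.17.

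Ifit1 and Ifit3 encode proteins with tetratricopeptide repeats that bind viral RNA or assist in doing so. Ifit1 was a dim probe, at -2.75, -2.32, -1.28 and -2.75 in BAT WT and -0.65, -0.18, -1.44 and -0.79 in BAT KO. WT replicate 3 lay above KO replicate 3, so the groups overlapped, although the log2 change of 1.51 (SE 0.37) passed the test (adjusted p = 0.007). The exact permutation test of Ifit1 alone gave p = 0.0571, two-sided, where 4 arrays against 4 allow no less than 0.0286. Ifit3 levels were -1.24, -0.64, -0.31 and -0.50 in BAT WT and 1.24, 1.27, 0.51 and 1.28 in BAT KO. Its groups were separate and differed 3.35-fold (log2 change 1.74, SE 0.24, adjusted p = 0.000323), with KO replicate 3 below the other KO arrays. Ifit3b, a near-identical neighbour of Ifit3, changed by 1.41 (adjusted p = 0.000466), and the files hold no probe sequence to tell how far each probe reads the other gene.

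Rsad2 and Oas2 encode antiviral enzymes. Rsad2, also called viperin, makes a chain-terminating nucleotide, and its BAT levels were -0.049, 0.33, 0.58 and 0.49 in WT and 1.0, 1.39, 0.65 and 0.90 in KO. The groups were separate by a narrow margin, for a log2 change of 0.65 (SE 0.19, adjusted p = 0.0157), and a dimmer probe gave 0.90. Oas2 senses double-stranded RNA and makes the oligoadenylates that activate RNase L. Its levels were -0.92, -0.033, -0.62 and -0.29 in BAT WT and 2.47, 2.43, 1.92 and 1.94 in BAT KO. This was the largest change among the 8 members, with a log2 change of 2.66 (SE 0.22, adjusted p = 2.48e-05). The exact permutation test gave 0.0286, the smallest p possible, for each of the 6 members whose BAT groups did not overlap.

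With slide as a block, which sets the BAT KO arrays against the WT array on their own slide, the log2 changes were 2.48 for Oas2, 1.98 for Ifit1, 1.67 for Isg15, 1.57 for Ifit3, 1.45 for Stat2 and 1.44 for Irf7. They were 0.49 for Rsad2 and 0.41 for Irf1. Only 1 WT array carries this comparison, so these values are given as sizes alone. The scaling of the arrays also mattered. Scaled by Actb and Rplp0, the median of all genes tested shifted to -0.67, 5 of the 8 members were higher past the test, Stat2 (0.55, adjusted p = 0.058) and Rsad2 (0.057, adjusted p = 0.812) no longer passed and Irf1 turned to -0.22. Scaled by spike-in controls, that median shifted to 0.46 and 8 of 8 members were higher. Of the 14280 genes tested in BAT, 8776 were called with the percentile, 44.7% of them higher. With Actb and Rplp0 10818 were called, 17.7% of them higher, and with spike-ins 9101, 79.7% of them higher.

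Cell type markers also changed in BAT, some lists upward like the members and others downward. Of 10 macrophage markers, 8 rose and none fell, with a median log2 change of 2.83, and 8 rose and 1 fell when scaled by Actb and Rplp0. Their summed level, on a linear scale where the array's 75th percentile is 1, was 28.6 to 39.6 in BAT WT and 94.1 to 136.7 in BAT KO. The markers Mrc1 (3.15, adjusted p = 1.25e-05), Ptprc (2.82, adjusted p = 1.77e-05), Fcgr1 (3.79, adjusted p = 2e-05) and Adgre1 (2.84, adjusted p = 3.16e-05) rose, and no macrophage marker was below background on all arrays of a group. Of 7 T cell and NK cell markers tested, 5 rose. The summed level of the 9 with a probe went from 4.09 to 6.64 in WT to 5.07 to 7.63 in KO. Of these 9, Cd8a, Klrb1c and Ncr1 were not above background on any BAT WT array. The 7 tested therefore include a marker that entered the test through the KO arrays alone, which can raise the count. Of 6 dendritic cell markers tested, 4 rose and 2 fell. The summed level of the 9 with a probe was 124.2 to 174.7 in WT and 109.4 to 122.0 in KO, and such a sum is led by its brightest genes. All 8 adipocyte markers fell with the percentile, against 4 of 8 with spike-ins or quantile normalization, and their summed level was 2948 to 3287 in WT and 1176 to 1595 in KO. The part of these markers in the rise of the members was not tested, and in bulk tissue more cells of a type and more RNA per cell cannot be told apart.

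**Figure D2:**
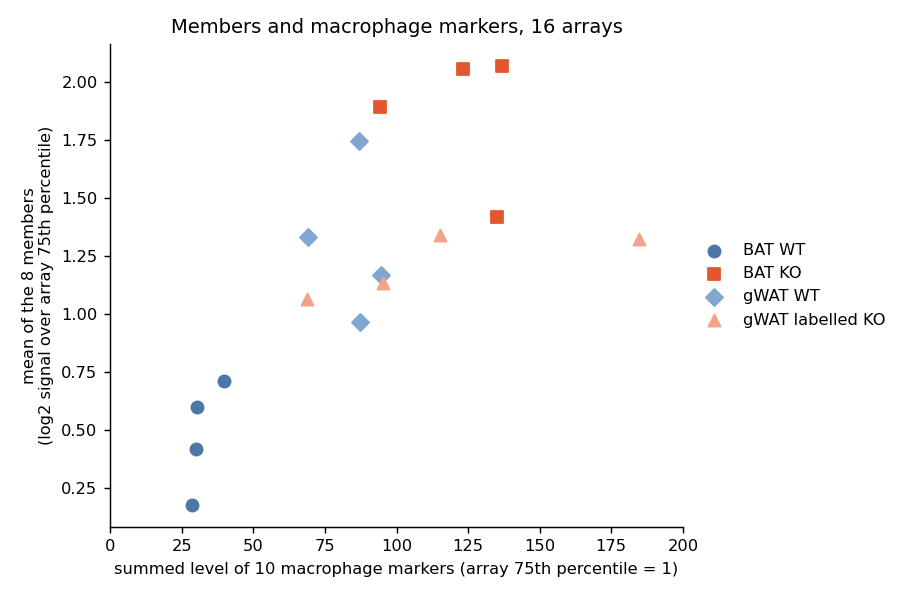
Each point is 1 of the 16 arrays. The horizontal axis is the summed linear level of 10 macrophage markers and the vertical axis the mean log2 level of the 8 members. BAT WT arrays sit lowest on both axes, and the gWAT array with the largest marker sum, 184.7, has a member mean of 1.33, below the 1.42 to 2.07 of BAT KO.

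Within a group the order of the arrays by macrophage sum and by member mean was the same in BAT WT and differed in the other groups. In BAT WT the sums 28.6, 29.8, 30.3 and 39.6 stood beside member means of 0.18, 0.42, 0.60 and 0.71. Among BAT KO arrays, replicate 3 had the lowest value for 8 of 8 members and a member mean of 1.42, against 1.89 to 2.07 on the other 3, while its macrophage sum of 135.0 was close to the highest, 136.7. Among gWAT arrays labelled KO, the sums 68.8, 95.4, 115.3 and 184.7 stood beside member means of 1.06, 1.13, 1.34 and 1.33, so the orders differed only in the top pair. In gWAT WT the sums 69.0, 87.0, 87.2 and 94.5 stood beside 1.33, 1.75, 0.97 and 1.17.

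In gWAT none of the 8 members passed the test between arrays labelled Adipo-Pgam1 KO and WT, by limma or by the methods' t-test, and 0 of 8 had an unadjusted limma p below 0.05. Of the 14149 genes tested in gWAT, 17.8% were called in either direction, 9.99% higher and 7.85% lower. The members' median log2 change was -0.14, against 0.047 over all genes tested. WT and labelled KO arrays overlapped for all 8 members, and 24.2% of all genes tested did not overlap.

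Stat2 stood at 1.13, 1.21, 1.56 and 1.15 in gWAT WT and at 0.95, 1.03, 1.06 and 1.35 on the arrays labelled KO. The log2 change was -0.17 (SE 0.15, adjusted p = 0.46). Irf7 levels were 3.59, 4.18, 4.36 and 4.46 in WT and 3.29, 3.71, 4.0 and 3.73 with the KO label. Among the 8 members Irf7 had the smallest p in gWAT, with a log2 change of -0.47 (SE 0.22, adjusted p = 0.176). Irf1 levels were 3.40, 2.76, 2.98 and 2.64 in WT and 2.65, 2.50, 2.37 and 2.91 with the KO label, a log2 change of -0.34 (SE 0.19, adjusted p = 0.256). When scaled by spike-in controls, which moved the median of all genes tested in gWAT to 0.49, the change of Stat2 turned to 0.28 and that of Irf1 to 0.11, neither past the test.

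Isg15 in gWAT stood at 1.61, 2.12, 2.58 and 1.70 in WT and at 2.25, 2.27, 2.32 and 2.25 on the arrays labelled KO. The labelled KO arrays lay close together inside the range of the WT arrays, and the log2 change was 0.27 (SE 0.21, adjusted p = 0.39). Ifit1 showed the same layout, with -2.58, -1.59, -0.97 and -2.30 in WT and -1.68, -1.65, -1.43 and -1.71 with the KO label. Its log2 change was 0.24 (SE 0.32, adjusted p = 0.634). Ifit3 levels were 1.08, 1.5, 2.17 and 1.01 in WT and 1.35, 1.32, 1.54 and 1.07 with the KO label, and here too the change of -0.12 (SE 0.25, adjusted p = 0.785) was smaller than the SD of 0.53 among WT arrays.

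Rsad2 in gWAT stood at -0.86, 0.17, 0.25 and -0.38 in WT and at -0.21, -0.36, 0.15 and -0.14 on the arrays labelled KO, a log2 change of 0.06 (SE 0.25, adjusted p = 0.894). Oas2 levels were 0.36, 0.30, 1.05 and 1.09 in WT and -0.08, 0.25, 0.72 and 1.15 with the KO label. Oas2, the member that rose most in BAT, changed by -0.19 in gWAT (SE 0.30, adjusted p = 0.69). Set against the WT array on the same slide, the labelled KO arrays differed by 0.57 for Isg15, 0.68 for Ifit1, 0.32 for Ifit3, 0.23 for Rsad2, -0.052 for Stat2, -0.032 for Irf1, -0.58 for Oas2 and -0.77 for Irf7, and none passed with slide as a block. Macrophage markers in gWAT had a summed level of 69.0 to 94.5 in WT and 68.8 to 184.7 with the KO label, and 1 of 10, Cd68, rose (1.48, adjusted p = 0.0365).

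The genotype change itself differed between the depots for 5 of the 8 members, tested as an interaction over all 16 arrays, where 20.9% of 14820 genes were called lower in the same direction. The log2 change in gWAT minus that in BAT was -2.85 for Oas2 (SE 0.40, adjusted p = 7.34e-05). The difference was -1.98 for Irf7 (SE 0.33, adjusted p = 0.000276), -1.86 for Ifit3 (SE 0.37, adjusted p = 0.00101), -1.31 for Stat2 (SE 0.25, adjusted p = 0.000731) and -1.19 for Isg15 (SE 0.34, adjusted p = 0.00936). Ifit1 (-1.27, adjusted p = 0.0594), Irf1 (-0.71, adjusted p = 0.0996) and Rsad2 (-0.59, adjusted p = 0.159) pointed the same way and did not pass. With slide as a fixed block the differences of Isg15 (-1.10, adjusted p = 0.16) and Ifit3 (-1.26, adjusted p = 0.139) no longer passed, which left 3 of the 8. Of all genes called, 56.7% were higher with the percentile and 83.7% when scaled by Actb and Rplp0.

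**Figure D3:**
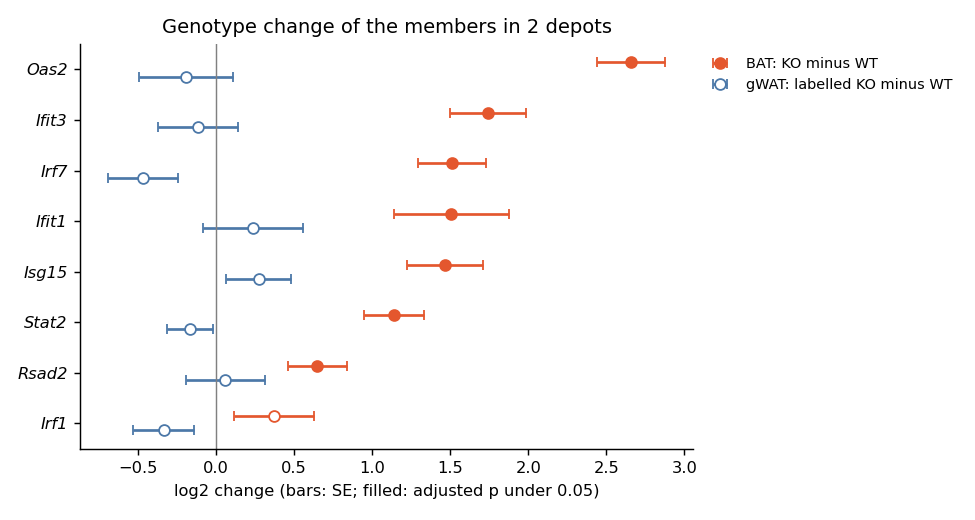
Points are log2 changes of the 8 members, KO minus WT, with SE bars. Red is BAT, blue is gWAT by its labels, and filled points passed the test. BAT changes run from 0.37 to 2.66 and gWAT changes from -0.47 to 0.27, so that all 8 red points lie to the right of their blue partners.

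Without the deletion, several members already differed between depots. Of the 8, 4 were higher in gWAT WT than in BAT WT and none was lower, while 30.7% of 14304 genes were called higher in gWAT WT and 37% lower. Ifit3 (log2 difference 2.11, SE 0.26, adjusted p = 5.01e-06), Irf7 (1.93, SE 0.23, adjusted p = 3.86e-06), Oas2 (1.17, SE 0.28, adjusted p = 0.00179) and Stat2 (0.72, SE 0.18, adjusted p = 0.00214) were the 4. Irf1 (0.45, adjusted p = 0.105), Ifit1 (0.41, adjusted p = 0.333) and Isg15 (0.36, adjusted p = 0.197) did not pass. Rsad2 was the 1 member with a lower mean in gWAT WT (-0.54, adjusted p = 0.0522). Oas2 (0.87, adjusted p = 0.136) did not pass with slide as a fixed block, and Stat2 (0.39, adjusted p = 0.113) did not when scaled by Actb and Rplp0. Of all genes called, 45.4% were higher with the percentile, 29.1% with Actb and Rplp0 and 57.8% with spike-ins. Macrophage markers moved in the same direction, with 9 of 10 higher in gWAT WT, and their part was not tested.

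Set in order, BAT KO had the highest mean of the 4 groups for 5 members and gWAT WT for the other 3, while BAT WT had the lowest mean for 7. For Oas2 and Rsad2 every BAT KO array lay above every array of the other 3 groups. For Isg15, BAT KO lay above BAT WT and the gWAT arrays labelled KO, while gWAT WT replicate 3, at 2.58, exceeded the lowest BAT KO array, at 2.47. For Irf7 and Ifit3, BAT WT lay apart below the other 3 groups, which overlapped with each neighbour in the order. Stat2 had BAT WT apart at the bottom and overlapping neighbours above. For Irf1 and Ifit1 each group overlapped the next.

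The ligands of the pathway were near the background of the arrays. Ifnb1, the first type I interferon made by most cells, was not above background on any of the 16 arrays. Ifng was above background on 3 arrays, namely BAT KO replicates 1 and 2 and gWAT WT replicate 1, and was not tested. Of 17 interferon genes with a probe, 4 could be tested in BAT and none in gWAT. None of the 4 passed by limma and 0 had an unadjusted p below 0.05, with log2 changes of -0.53 for Ifna9 (adjusted p = 0.0947) and 1.01 for Ifnab (adjusted p = 0.251).

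Receptors and factors upstream of the members changed in both directions in BAT. The type I receptor subunits fell: the change was -1.02 for Ifnar2 (SE 0.13, adjusted p = 0.000173) and -0.51 for Ifnar1 (SE 0.10, adjusted p = 0.00258). Dimmer probes gave -0.44 for Ifnar2, and -0.43 and -0.34 for Ifnar1. Of the gamma receptor, Ifngr2 rose by 0.85 (adjusted p = 0.00194), while Ifngr1 stood at -0.38 (adjusted p = 0.228). The kinase Jak1 (0.95, adjusted p = 0.000108) and the lambda receptor Ifnlr1 (2.65, adjusted p = 0.000129) rose. In all, 4 of 9 receptors and kinases rose and 2 fell. Only 8 of the 9 could be tested between the WT depots, so not all were above background on every BAT WT array. A gene that entered the BAT test through the KO arrays alone can raise the count. Scaled by spike-in controls, Ifnar1 stood at 0.039 (adjusted p = 0.838) and Ifnar2 was the 1 that still fell, while 6 of 9 rose. Scaled by Actb and Rplp0, Ifngr2 stood at 0.26 (adjusted p = 0.136), and of the 9, 2 rose and 4 fell.

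Irf9, which gives the complex its DNA contact, rose in BAT by 0.61 (SE 0.12, adjusted p = 0.00277), and Irf3, which drives interferon beta and is not itself a known interferon target, changed by -0.52 (SE 0.11, adjusted p = 0.0042). Dimmer probes gave 0.33 for Irf9 and -0.28 for Irf3. Usp18, which removes Isg15 from proteins and dampens the receptor, rose by 2.48 (SE 0.28, adjusted p = 0.000106). Irf9 stood at 0.016 when scaled by Actb and Rplp0 (adjusted p = 0.931) and Irf3 at 0.028 when scaled by spike-ins (adjusted p = 0.846), while the rise of Usp18 passed under each of the 5 scalings. In gWAT, Ifngr2 rose (0.63, adjusted p = 0.0186), and Usp18 (0.64, adjusted p = 0.0695), Ifnar2 (0.42, adjusted p = 0.0677), Ifngr1 (-0.62, adjusted p = 0.0597), Ifnar1 (-0.31, adjusted p = 0.152), Irf9 (-0.087, adjusted p = 0.647) and Irf3 (0.051, adjusted p = 0.823) did not pass.

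**Figure D4:**
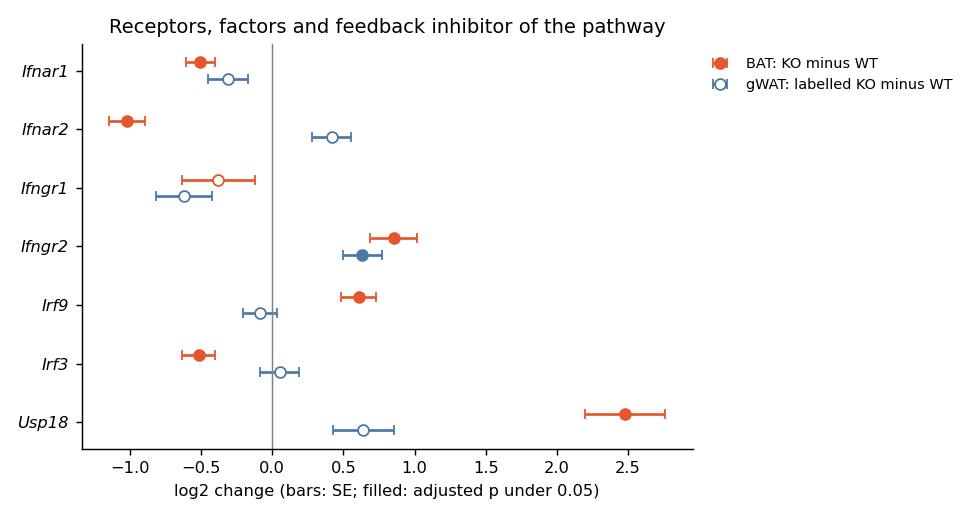
Log2 changes with SE bars of the 4 main receptor subunits, Irf9, Irf3 and Usp18, in BAT (red) and in gWAT by its labels (blue), with filled points past the test. Usp18 has the largest change, 2.48 in BAT, and Ifnar2 stands at -1.02 in BAT and 0.42 in gWAT.

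Of 14 STAT and IRF factors outside the members, 7 rose in BAT and 2 fell, which became 4 and 6 when scaled by Actb and Rplp0. Those that rose included Irf8 (2.73, adjusted p = 5.68e-06) and Irf5 (2.41, adjusted p = 1.11e-05), which are abundant in myeloid cells, and Stat4 (2.10, adjusted p = 0.000288). Stat4 was not above background on any BAT WT array, so it entered the test through the KO arrays alone and its change is set against background. In gWAT, Stat6 rose (0.56, adjusted p = 0.0221), Stat5a fell (-0.62, adjusted p = 0.0459) and 12 of 14 did not pass, while with spike-in scaling 2 rose and none fell.

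Most type I effectors outside the 9 members rose in BAT. Of 44 tested, 35 rose and 2 fell, with a median log2 change of 1.30. All 44 were above background on all 4 BAT KO arrays, and 39 were on all 4 BAT WT arrays. The rest entered the test through the KO arrays, which raises the count and the median. The smallest adjusted p belonged to the oligoadenylate synthetase relatives Oasl2 (2.53, adjusted p = 1.09e-05), Oas1a (2.83, adjusted p = 1.3e-05) and Oasl1 (3.24, adjusted p = 1.32e-05) and to Trim30a (2.02, adjusted p = 1.22e-05). The 2 that fell, named after their values were seen, were Ifi27 (-1.41, adjusted p = 4.23e-05) and Trim56 (-0.57, adjusted p = 0.00402). The summed linear level of the 47 effectors with a probe was lower in BAT KO, at 553.5 to 756.7, against 949.7 to 1233.6 in BAT WT. Such a sum is led by its brightest genes. In gWAT, 1 of 42 rose and 2 fell, with a median of 0.019. Ifit2 was the one that rose (0.54, adjusted p = 0.0336), and Ifi27l2a (-1.69, adjusted p = 0.00383) and Gbp3 (-0.68, adjusted p = 0.0144) were the 2 that fell. Scaled by Actb and Rplp0, 27 of 44 still rose in BAT and 4 fell, and by spike-ins 39 rose and 1 fell. In gWAT, 8 of 42 rose and 1 fell with spike-ins, with a median of 0.46. That scaling called 5100 of the 14149 genes tested in gWAT, 95.3% of them higher, and moved the median of all genes tested to 0.49. The change in gWAT was below that in BAT past the test for 32 of 44 and above it for 2, against 22 and 4 when scaled by Actb and Rplp0.

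Genes of the gamma response and of antigen processing showed a smaller median in BAT, where 14 of 30 rose and 2 fell, with a median log2 change of 0.58. All 30 were above background on all 4 BAT KO arrays, and 28 were on all 4 BAT WT arrays. Wars, a tRNA synthetase known to be induced by interferon gamma, rose in BAT (1.55, adjusted p = 1.31e-05) and in gWAT (1.13, adjusted p = 0.0159). Ifi47 (2.24, adjusted p = 0.000119), Ciita, the master factor of MHC class II (2.11, adjusted p = 0.000539), and H2-K1, an MHC class I chain (0.84, adjusted p = 0.000324), rose in BAT. In gWAT 1 of 29 rose and 7 fell, with a median of -0.26, and the 7 included Cxcl9 (-1.0, adjusted p = 0.0152), Tap2 (-0.53, adjusted p = 0.0196) and Nlrc5 (-0.61, adjusted p = 0.0256). These counts moved with the scaling. In BAT, 5 rose and 6 fell when scaled by Actb and Rplp0, with a median of -0.0086, and in gWAT none fell when scaled by the array median or by spike-ins.

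Sensors of nucleic acid and their adaptors, which start interferon production, rose for 11 of 18 in BAT and fell for 3, against 6 and 7 when scaled by Actb and Rplp0. Cgas, the cytosolic DNA sensor, rose by 1.61 (adjusted p = 1.48e-05), as did Unc93b1 (1.59, adjusted p = 4.71e-05), Aim2 (2.48, adjusted p = 6.77e-05) and Samhd1 (1.69, adjusted p = 7.24e-05). Aim2, Tlr8 and Ikbke were not above background on any BAT WT array. Aim2 therefore entered the test through the KO arrays alone, and its change is set against background. None of 18 passed in gWAT by limma, where 4 had an unadjusted p below 0.05, and the closest were Tbk1 (0.36, adjusted p = 0.0679) and Ticam1 (0.38, adjusted p = 0.0815). With spike-in scaling 6 of the 18 rose in gWAT, and with quantile normalization 1 did. Spike-in scaling called 5100 of the 14149 genes tested there, 95.3% of them higher. Of 10 feedback inhibitors, 5 rose in BAT and 2 fell, against 3 and 3 when scaled by Actb and Rplp0. Beside Usp18 they were Ptpn6 (2.18, adjusted p = 8.45e-05) and Socs1 (1.84, adjusted p = 0.000277) among the higher and Ptpn11 (-0.63, adjusted p = 0.000413) among the lower. None of the 10 passed in gWAT by limma, where 1, Usp18, had an unadjusted p below 0.05, and the next closest was Pias1 (-0.19, adjusted p = 0.317). With spike-ins, or with Actb and Rplp0, 1 of the 10 rose there.

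**Figure D5:**
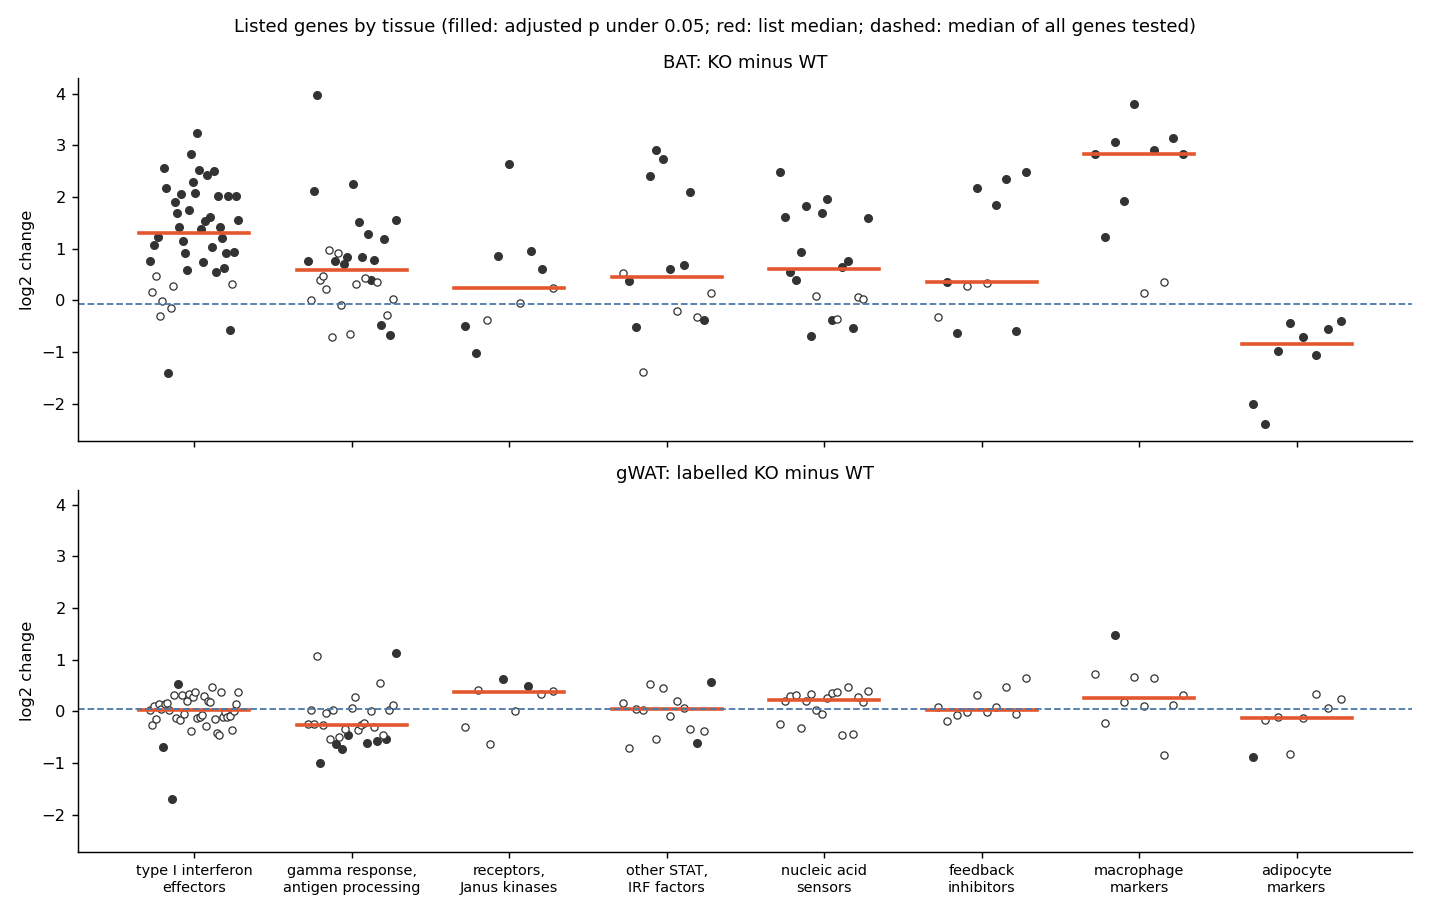
Points are the log2 changes of the tested genes of 8 lists, in BAT above and in gWAT by its labels below, on a shared scale. Filled points passed the test, red lines are list medians and the dashed line is the median of all genes tested. In BAT the type I effectors have a median of 1.30 and the macrophage markers of 2.83, and in gWAT the effectors lie around 0.019.

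The members varied together only in part. Over the 16 arrays, Pearson's r of the 28 pairs of members ran from -0.051 to 0.92 with a median of 0.58, and after each group's mean was subtracted it ran from -0.39 to 0.83 with a median of 0.41. Pairs share the same arrays and their scaling, so these values are a description. Among 12352 genes above background on all 16 arrays, those most like the mean of the 8 members over the arrays were Rtp4 (r = 0.95), Trim30a (r = 0.95), Slfn8 (r = 0.95), Phf11a (r = 0.95) and Xaf1 (r = 0.94). After group means were subtracted they were Cmpk2 (r = 0.89), Elovl5 (r = 0.88), Phf11d (r = 0.86), Rtp4 (r = 0.83) and Pomt1 (r = 0.82). Rtp4 was the gene named by both orders.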

How the data were processed

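RNA from BAT and gWAT was hybridised by the authors to 16 one-colour Agilent SurePrint G3 Mouse arrays, 4 per tissue and genotype, each deposited as 1 scanner file. The labels and the study's methods give different amounts of input RNA. The deposited processed signal intensity, from Agilent Feature Extraction 10.7.1.1, had background and spatial trend subtracted and low values raised to a floor. The deposited normalized table, a linear intensity ratio made by the authors in GeneSpring, matched the values computed here to a median difference of at most 0.00504 on the log2 scale per array, and served as an alternative. Its direction and scale were settled by that match.

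Signals were averaged over spots of a probe, divided by the array's 75th percentile and log2 transformed. Outlier spots and control spots were left out, and no spot was saturated. A symbol was found for 91.9% of the 35886 probes that carry a RefSeq accession. The brightest probe over all arrays stood for a gene, and levels of different probes were not compared. Genes entered a test if Feature Extraction marked every array of 1 genotype or the other as well above background. Groups were compared with limma 3.58.1 (lmFit and eBayes) in R 4.3.3, two-sided, with Benjamini-Hochberg adjustment at 0.05, tested on simulated data. Single members were also compared by the exact permutation test. The study calls the samples of a group independent, and whether a BAT and a gWAT array came from 1 mouse is not given in the sources used here.

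The members and the 17 lists were chosen with earlier results of these data known. All members were named with every array, and of each list up to 4 genes with the smallest adjusted p past the threshold, or the 2 with the smallest p where none passed, and the core of the pathway whatever its result. Some genes that this rule names are not reported here. Alternatives covered background correction, scaling, filters, probe choice, slide, scan day, replicate number, the methods' t-test and each array left out. Normexp was planned on mean spot signals and was run on median spot signals, with an offset of 50. Scaling by 7 spike-in probes and by Actb and Rplp0 was also tried, and repeating the lists under each scaling was chosen after seeing the data. With few arrays per group, their number limits the precision. Of the other marker lists, B cell markers changed in BAT for 1 of 4 tested, lower, neutrophil markers for 1 of 3, lower, endothelial markers for 1 of 8, lower, skeletal muscle markers for 2 of 5, higher, and epididymis markers for 1 of 2, lower. None of these 5 lists had a gene past the test in gWAT by limma, where 1 B cell marker and 2 skeletal muscle markers had an unadjusted p below 0.05. Figures were drawn with matplotlib 3.10.9.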

Additional observations from a re-analysis of the deposited data

Results flagged for a closer look

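Ifit3 in BAT KO had 1 array apart from the others. Replicate 3 stood at 0.51, against 1.24 to 1.28 on the other 3, and its gap to the nearest array was 0.951 of the group's range, above the limit of 0.829 for 4 arrays. Over the 32 groups of values tested, 1 was above that limit, and chance gives about 1 in 20.

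The genotype change differed between depots, by the interaction test in limma, for 5 members. The log2 change in gWAT, by its labels, minus that in BAT was -2.85 for Oas2, -1.98 for Irf7, -1.86 for Ifit3, -1.31 for Stat2 and -1.19 for Isg15. Pgam1 itself also moved in opposite directions in the 2 depots, so these differences rest on the gWAT labels.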

How the results depend on the processing

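Of 888 single-member values under 33 alternatives, 844 kept their call and direction. In BAT the members' median of 1.49 moved to 2.03 with spike-in scaling and 0.90 with Actb and Rplp0, where Irf1 turned to -0.22. In gWAT, whose members never passed, the median of -0.14 turned to 0.30 with spike-ins and to 0.10 with slide, with scan day or on the slide with both genotypes, where Ifit3 turned to 0.32. Ifit3 turned to 0.0056 with median scaling, and with spike-ins Stat2 turned to 0.28, Irf1 to 0.11, Ifit3 to 0.33 and Oas2 to 0.25. The gWAT count of 2525 genes became 1388 with median scaling, 5100 with spike-ins, 1138 without the filter, 184 with slide or scan day, 121 on the shared slide, and 4673 by the methods' t-test, or 1618 after Benjamini-Hochberg. The depot difference of the change had a median of -1.29, or -0.75 with Actb and Rplp0, and 7161 genes past the test, against 3265 with slide, where 3 members passed, and 4561 with scan day. Isg15 did not pass there with Actb and Rplp0 (-0.66, adjusted p = 0.0821) or scan day (-0.89, adjusted p = 0.143). Between WT depots the median of 0.59 became 0.95 with slide, and Rsad2 became the 1 lower member with Actb and Rplp0, on genes above background on all arrays, and with trend and robust eBayes. The cause of these shifts was not tested.

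Leaving out each array in turn, the BAT median ran from 1.33 to 1.63 with 7 members higher each time and 7880 to 8712 genes. The gWAT median ran from -0.20 to 0.030, positive without WT replicate 3, and the genes from 1143 to 3236. They were 1188 and 1582 without WT replicates 2 and 3, and 1168, 1285 and 1143 without labelled KO replicates 1, 2 and 3. In gWAT, Ifit1 turned to -0.0011 and Rsad2 to -0.16 without WT replicate 1, Ifit3 to 0.13 without WT replicate 3, Oas2 to 0.0041 and Rsad2 to -0.037 without labelled KO replicates 1 and 3. Over all arrays left out in turn, the gWAT change reached 0.54 for Ifit1, -0.26 for Ifit3, 0.21 for Rsad2 and -0.41 for Oas2 at the other end. The depot difference of the change kept a median of -1.47 to -1.11, with 6500 to 7594 genes and 5 to 7 members past the test. Ifit1 passed without BAT WT replicate 3, BAT KO replicate 3, or gWAT WT replicate 1 or 4, and Rsad2 without gWAT WT replicate 1. Between WT depots the median ran from 0.53 to 0.73, with 9117 to 9891 genes, 4 to 5 members higher and 0 to 1 lower, Rsad2 without BAT WT 1, BAT KO 2, or gWAT WT 2 or 3.

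Arrays with the same number did not deviate together in every pair, so the numbers were not taken as pairs. With replicate number as a block, 7 members still rose in BAT, the gWAT genes were 1087, Ifit1 passed the depot difference of the change (-1.27, adjusted p = 0.0101) and Rsad2 was the 1 member lower in gWAT WT (-0.54, adjusted p = 0.0412). Scan day could not be fitted in BAT, whose arrays were scanned on 1 day, and the methods' t-test was not run for the depot difference of the change.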

Other observations

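Arrays of a group differed in the same direction for many interferon genes. BAT KO replicate 3 was lowest of its group for 8 of 8 members, for 28 of 44 type I effectors and for 22 of 30 genes of the gamma list, and for 25.7% of the 29112 probes above background on all 4 arrays. BAT KO replicate 1 was highest for 25 of the 30 genes of the gamma list and for 22.7% of probes. It also had the highest Irf1, at 3.71, and the highest Ifng of its group, at -3.14.

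In gWAT WT, replicate 1 had the highest Ifng of all 16 arrays, at -1.47, and the highest Irf1 of its group, at 3.40, and it was lowest for 5 of 8 members and for 25 of 42 type I effectors, against 38.9% of 28658 probes. Replicate 3 of gWAT WT was highest for 5 of 8 members and for 25 of 42 effectors, against 27.8% of probes. These arrays were singled out after their values were seen, and no cause was tested.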
